A study of Homo sapiens with 11 samples.

Results

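The 10 hypoxia response genes NDRG1, BHLHE40, VEGFA, P4HA1, P4HA2, ADM, BNIP3, BNIP3L, EGLN1 and HIF1A were followed in HEK293T, a cell line from human embryonic kidney, after transfection of mutant DFNA5 (mutDFNA5) or wild-type DFNA5 (wtDFNA5). All probes that the platform annotation gives to these symbols were taken, 18 of the 42000 on the array. Of these, 14 probes for 9 genes were bright enough to be tested, among 14542 probes tested in all. NDRG1 rose 1.78-fold and BHLHE40 1.65-fold in mutDFNA5 cells relative to wtDFNA5 cells. Of the 3 P4HA2 probes 1 fell, a result lost in 10 of 18 alternative settings. None of the remaining 11 tested probes passed the test. Over all tested probes 8.22% passed, 3.91% higher and 4.31% lower in mutDFNA5 cells. The members did not share a direction: 7 of the 14 tested probes had a positive log2 change and 7 a negative one. Over all tested probes 7127 were positive and 7415 negative. When the arrays were scaled by their medians instead of by quantiles, the members' counts were 10 and 4. That scaling also moved the median log2 change of all tested probes from -0.004 to 0.07.

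The experiment comprised 11 arrays of the Illumina HT12 beadchip type, 1 per sample, of which 6 carried mutDFNA5 RNA and 5 wtDFNA5 RNA. DFNA5, now named GSDME, encodes gasdermin E, and the mutant cDNA lacked an exon, as in the dominantly inherited hearing loss that the study addresses. Both constructs were introduced by lipofection into the same cell line, so every array comes from cells that received a DFNA5 plasmid, and no array of empty-vector or untransfected cells was analysed here. The titles call the mutDFNA5 samples KO, although the characteristics name mutant DFNA5. For harvest the labels state 6 h, and for the extraction of RNA they state 12 h. Replicates are described in the methods as independent biological ones.

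In well-oxygenated cells prolyl hydroxylases of the EGLN family modify the HIF alpha subunits, which are then bound by the VHL ubiquitin ligase and degraded. When oxygen is scarce the alpha subunit accumulates, pairs with ARNT and binds hypoxia response elements next to its target genes. The classical targets serve glycolysis, blood vessel growth, collagen hydroxylation and the removal of mitochondria. HIF1A is regulated mainly through the stability of its protein, which expression arrays do not measure.

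The sequences before the start of member genes are shown because HIF acts through hypoxia response elements next to its target genes. The only called riser among those shown is BHLHE40. They are the 250 bases before the annotated start, from RefSeq (GRCh38.p14), written 5′ to 3′ on the strand of the gene. The core ACGTG was searched on both strands, and its matches, also as CACGT, are in capitals. CACGTG holds the core on both strands and counts as 2 matches. BHLHE40 (chr3:4979187-4979436, plus strand), which rose, had 4 matches. BNIP3 (chr10:131981924-131982173, minus strand) had 2 and EGLN1 (chr1:231422288-231422537, minus strand) had 1, and neither gene passed the test. P4HA2 (chr5:132227092-132227341, minus strand) had none.
BHLHE40: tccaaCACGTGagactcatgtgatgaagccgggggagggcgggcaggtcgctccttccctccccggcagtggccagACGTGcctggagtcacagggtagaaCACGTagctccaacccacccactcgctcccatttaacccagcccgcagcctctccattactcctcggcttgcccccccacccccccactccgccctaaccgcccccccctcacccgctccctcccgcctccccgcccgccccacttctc
BNIP3: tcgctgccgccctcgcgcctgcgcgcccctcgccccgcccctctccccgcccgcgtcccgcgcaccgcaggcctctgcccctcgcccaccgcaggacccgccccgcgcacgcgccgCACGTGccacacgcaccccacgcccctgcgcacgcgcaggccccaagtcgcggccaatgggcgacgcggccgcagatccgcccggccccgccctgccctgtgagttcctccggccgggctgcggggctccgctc
EGLN1: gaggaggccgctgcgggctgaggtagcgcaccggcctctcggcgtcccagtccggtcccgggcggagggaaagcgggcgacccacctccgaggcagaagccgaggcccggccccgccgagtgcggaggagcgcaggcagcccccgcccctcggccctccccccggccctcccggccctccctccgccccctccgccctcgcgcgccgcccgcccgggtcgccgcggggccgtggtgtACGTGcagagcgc
P4HA2: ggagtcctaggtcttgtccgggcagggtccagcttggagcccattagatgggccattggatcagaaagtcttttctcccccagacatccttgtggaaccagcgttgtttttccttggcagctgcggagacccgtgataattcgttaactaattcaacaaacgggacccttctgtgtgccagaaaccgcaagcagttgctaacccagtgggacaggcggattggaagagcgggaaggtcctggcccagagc
P4HA1, not called and not shown, had 1 match, and ADM and HIF1A, also not called and not shown, had none. Whether matches go with the direction of change was not tested. Of the 10 member genes, 7 had a promoter in the table (all but NDRG1, VEGFA and BNIP3L), and 4 of these 7 held ACGTG, against 18.7% of the 27305 promoters listed. The related core GCGTG, which is not in capitals here, was found in 3 of the 7 and in 31.9% of all promoters. Of the 7 genes 1 held neither core, and 43.1% of all promoters held either. In BNIP3 it occurred 4 times, and in BHLHE40 0 times. At least 3 matches to ACGTG, with CACGTG counted as 2, were found in 1.63% of all promoters. This share is a description and not a test of BHLHE40. These are matches of letters and not measured binding sites, and bases outside the 250 were not searched. A gene without a match here can therefore hold an element elsewhere.

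Signals are log2 values after quantile normalization, so 1 unit is a doubling. A probe was tested when its detection p-value, which gives the fraction of negative control beads that reach its brightness, was under 0.01 on at least 5 of the 11 arrays. It was called when limma's moderated test gave a Benjamini-Hochberg adjusted p under 0.05 over all 14542 probes. Between 14029 and 15443 probes were detected per array. Of 7 markers of HEK293T cells, 5 were detected on every array and 2 on none. Of these 5, NEFM (log2 change 0.75, adjusted p = 8.91e-07 by limma) and LIN28B (0.29, adjusted p = 0.0210) were called higher in mutDFNA5 cells. Of 8 markers of other cell types, 6 were detected on no array and 0 on every array, and PECAM1, an endothelial marker, was detected on 5 of 6 mutDFNA5 arrays and 4 of 5 wtDFNA5 arrays. The part of these markers in the results was not tested. The single DFNA5 probe averaged 8.05 ± 0.20 in mutDFNA5 cells and 8.02 ± 0.22 in wtDFNA5 cells (SD, n = 6 and 5, adjusted p = 0.908 with limma). The position of this probe in the transcript was not known here, so it checks neither the labels nor the dose of plasmid.

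Of the 14 tested member probes, 2 were called higher in mutDFNA5 cells and 1 lower. Over all tested probes 3.91% were called higher, 4.31% lower and 8.22% in either direction. With 1 probe per gene, the brightest, 2 of 9 member genes were called higher and 1 lower, against 4.05% and 4.92% of 9653 genes. The median log2 change of the 14 probes was 0.06, against -0.004 over all tested probes, and the median size of the change was 0.17 against 0.10. Only the probes of NDRG1 and BHLHE40, 2 of 14, gave mutDFNA5 and wtDFNA5 arrays that did not overlap, both higher in mutDFNA5 cells. Over all tested probes 5.81% did not overlap, 2.61% with mutDFNA5 higher and 3.2% with mutDFNA5 lower.

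**Figure D1:**
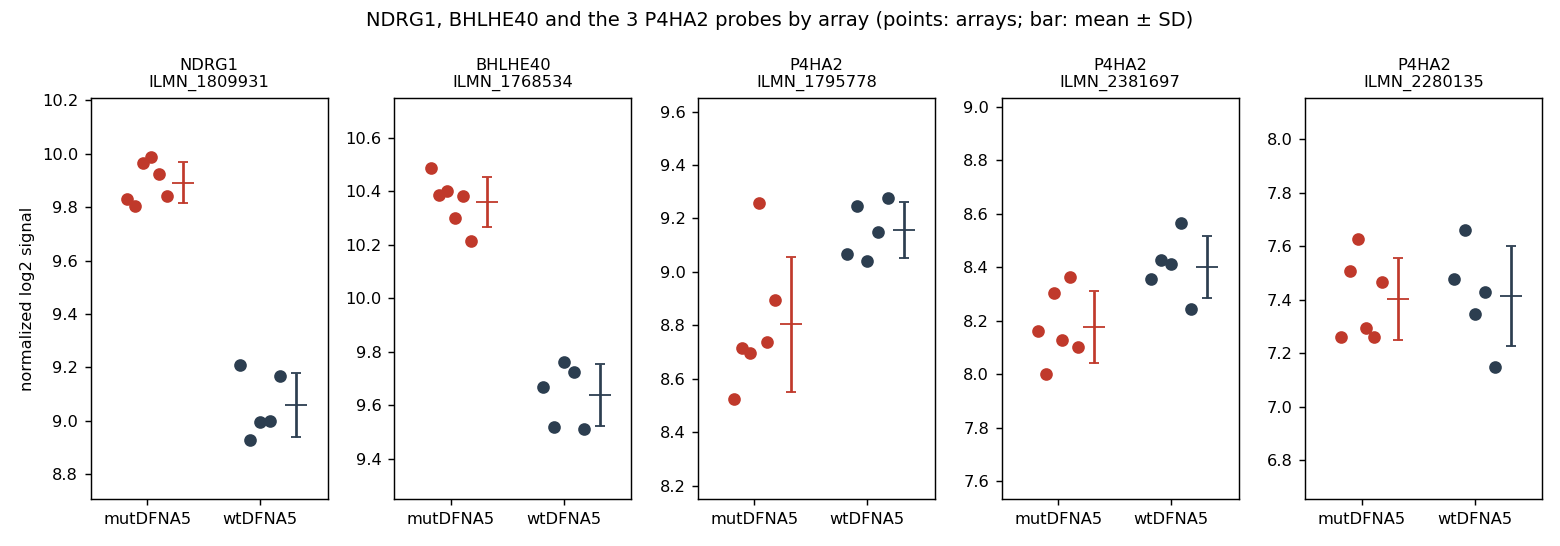
Normalized log2 signal (vertical axis) of the NDRG1, BHLHE40 and P4HA2 probes on each array, mutDFNA5 left (6 arrays) and wtDFNA5 right (5 arrays). Points are arrays, and bars are group means ± SD. NDRG1 (9.80 to 9.99 in mutDFNA5 and 8.93 to 9.21 in wtDFNA5) and BHLHE40 (10.21 to 10.49 in mutDFNA5 and 9.51 to 9.76 in wtDFNA5) separate completely, and the first P4HA2 probe separates except for mutDFNA5 replicate 4.

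The largest changes among the members were those of NDRG1 and BHLHE40. NDRG1 encodes a cytoplasmic protein induced by hypoxia, metal chelation and differentiation. Its signal was 9.83, 9.80, 9.96, 9.99, 9.92 and 9.84 on the 6 mutDFNA5 arrays, and 9.21, 8.93, 9.0, 9.0 and 9.17 on the 5 wtDFNA5 arrays. Every mutDFNA5 array was above every wtDFNA5 array. The means were 9.89 ± 0.08 in mutDFNA5 cells and 9.06 ± 0.12 in wtDFNA5 cells (SD), a log2 change of 0.83 (SE 0.08, 95% confidence interval 0.67 to 0.99), or 1.78-fold, with an adjusted p of 1.03e-07 by limma. The change ranked 36 by size among the 14542 probes, and changes of at least 0.7 in size made up 0.385% of them. As the arrays read RNA of whole cultures, more cells that express a gene and more RNA per cell cannot be told apart, here and in all results that follow.

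BHLHE40, also called DEC1, encodes a transcriptional repressor of the basic helix-loop-helix family that takes part in the circadian clock and in the response to low oxygen. Its signal was 10.49, 10.39, 10.40, 10.30, 10.38 and 10.21 on the mutDFNA5 arrays, and 9.67, 9.52, 9.76, 9.72 and 9.51 on the wtDFNA5 arrays. The groups did not overlap. The means were 10.36 ± 0.09 in mutDFNA5 cells and 9.64 ± 0.12 in wtDFNA5 cells (SD). The log2 change was 0.72 (SE 0.08, 95% confidence interval 0.57 to 0.88), or 1.65-fold, with an adjusted p of 1.05e-06 by limma, and it ranked 55 by size. NDRG1 and BHLHE40 were called in all 18 alternative settings, in which the log2 change ran from 0.80 to 0.99 for NDRG1 and from 0.69 to 0.83 for BHLHE40.

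Among the regulators, HIF1A, the oxygen-labile alpha subunit, was read by 3 probes, each detected on all arrays. Probe ILMN_2379788 gave 8.34 to 8.48 with a median of 8.43 on the mutDFNA5 arrays, and 8.32, 8.35, 8.41, 7.95 and 8.05 on the wtDFNA5 arrays. The ranges overlapped, and wtDFNA5 replicates 4 and 5 were the lowest arrays. The log2 change was 0.21 (SE 0.09, 95% confidence interval 0.03 to 0.39), with an adjusted p of 0.133 by limma. The brightest probe, ILMN_1763260, read 8.64 to 9.24 in mutDFNA5 cells and 8.65 to 8.98 in wtDFNA5 cells. The other HIF1A probes had log2 changes of 0.18 (ILMN_1763260, adjusted p = 0.294) and 0.12 (ILMN_1681283, adjusted p = 0.374), so the 3 estimates shared a positive sign and none passed the test. Their 95% confidence intervals ended at 0.40 (ILMN_1763260), 0.39 (ILMN_2379788) and 0.29 (ILMN_1681283) on the log2 scale.

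EGLN1, or PHD2, is the hydroxylase that marks HIF alpha subunits for degradation and is itself a HIF target. Its signal was 9.04 to 9.49 with a median of 9.26 in mutDFNA5 cells, and 9.49, 9.18, 9.60, 9.28 and 9.05 in wtDFNA5 cells. The 2 sets of arrays covered nearly the same range. The log2 change was -0.04 (95% confidence interval -0.25 to 0.17, adjusted p = 0.847 by limma).

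**Figure D2:**
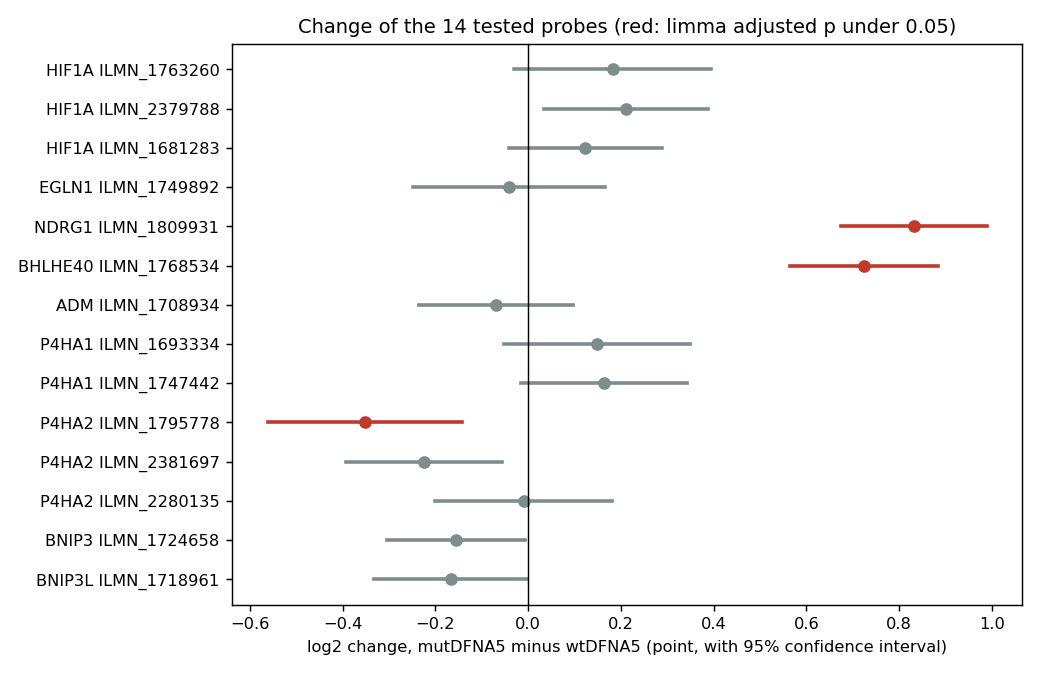
Log2 change, mutDFNA5 minus wtDFNA5 (horizontal axis), of the 14 tested member probes, with 95% confidence intervals from limma. NDRG1 at 0.83 and BHLHE40 at 0.72 stand apart from the others, which lie between -0.35 and 0.21.

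Of the secreted members, VEGFA, the main growth factor for blood vessels, did not pass the filter. Its probe ILMN_2375879 was detected on 2 of 6 mutDFNA5 arrays and 1 of 5 wtDFNA5 arrays, with signals of 7.25 to 7.51 in mutDFNA5 cells and 6.91 to 7.39 in wtDFNA5 cells. The remaining 2 VEGFA probes were detected on 0 arrays of either group, with signals from 6.72 to 7.29. The dimmest detected probe of an array read 7.36 to 7.46, at or above nearly all of these values, so no fold change is given and a difference in VEGFA was not detectable here.

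ADM encodes the vasodilator peptide adrenomedullin and was among the brighter members. It gave 10.32 to 10.65 with a median of 10.54 in mutDFNA5 cells, and 10.74, 10.48, 10.71, 10.48 and 10.52 in wtDFNA5 cells. The groups overlapped. The log2 change was -0.07 (SE 0.08, adjusted p = 0.660 by limma), and its 95% confidence interval of 0.85-fold to 1.07-fold excludes a rise of the size seen for NDRG1 or BHLHE40.

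P4HA1 and P4HA2 encode the catalytic subunits of the prolyl 4-hydroxylases that modify collagen in the endoplasmic reticulum. The 2 P4HA1 probes had log2 changes of 0.15 (95% confidence interval -0.05 to 0.35, adjusted p = 0.381) and 0.16 (95% confidence interval -0.02 to 0.34, adjusted p = 0.265). Neither passed the test. The brighter probe, ILMN_1693334, read 9.53 to 9.81 in mutDFNA5 cells and 9.12 to 9.70 in wtDFNA5 cells. On ILMN_1747442 the mutDFNA5 arrays ran from 8.42 to 8.88, and 4 of the 6 exceeded the highest wtDFNA5 array at 8.58.

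The 3 P4HA2 probes gave different values and are described one by one. The brightest, ILMN_1795778, read 8.52, 8.71, 8.70, 9.26, 8.74 and 8.90 in mutDFNA5 cells, and 9.07, 9.24, 9.04, 9.15 and 9.28 in wtDFNA5 cells. In mutDFNA5 cells 5 of 6 arrays were below the lowest wtDFNA5 array, and replicate 4 lay inside the wtDFNA5 range. The means were 8.80 ± 0.25 in mutDFNA5 cells and 9.16 ± 0.10 in wtDFNA5 cells (SD), and the log2 change was -0.35 (SE 0.10, 95% confidence interval -0.56 to -0.14), a level 1.28-fold lower in mutDFNA5 cells, with an adjusted p of 0.0327 by limma.

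This call was not stable. It was lost in 10 of 18 alternatives, among them normexp background correction (-0.46, adjusted p = 0.0863), median scaling (-0.26, adjusted p = 0.234) and no filter (adjusted p = 0.0541), and on leaving out any of wtDFNA5 replicates 2, 4 and 5 or mutDFNA5 replicates 1, 2, 3 and 5. When single arrays were left out the adjusted p ran from 0.00263, without mutDFNA5 replicate 4, to 0.0807. The direction was kept in all 18.

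Probe ILMN_2381697 read 8.0 to 8.36 with a median of 8.15 in mutDFNA5 cells, and 8.35, 8.43, 8.41, 8.57 and 8.25 in wtDFNA5 cells. Its log2 change was -0.22 (95% confidence interval -0.39 to -0.06, adjusted p = 0.0925 by limma), with 4 of 6 mutDFNA5 arrays below all wtDFNA5 arrays. Probe ILMN_2280135 was close to the limit of detection, detected on 3 of 6 mutDFNA5 and 3 of 5 wtDFNA5 arrays. It read 7.26 to 7.63 in mutDFNA5 cells and 7.15 to 7.66 in wtDFNA5 cells, a log2 change of -0.01 (95% confidence interval -0.20 to 0.18, adjusted p = 0.965). The annotation places the first probe on a different P4HA2 transcript from the other 2, which share one.

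Whether the P4HA2 probes differed in their change was tested directly, over all 462 ways to assign the arrays (exact permutation test, two-sided, 7 probe pairs of P4HA1, P4HA2 and HIF1A, Benjamini-Hochberg adjusted). The change of ILMN_1795778 was 0.34 log2 units below that of ILMN_2280135 (exact permutation p = 0.0758, adjusted p = 0.341). It was 0.13 units below that of ILMN_2381697 (exact permutation p = 0.407, adjusted p = 0.761), and 0 of the 7 pairs passed. The mean of the 3 P4HA2 probes had a log2 change of -0.20 (SE 0.07, adjusted p = 0.0709 by limma), which also did not pass.

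BNIP3 and BNIP3L (NIX) encode outer mitochondrial membrane proteins that act as receptors for mitophagy. BNIP3, among the brightest members, read 11.45 to 11.61 with a median of 11.52 in mutDFNA5 cells, and 11.59, 11.65, 11.84, 11.60 and 11.69 in wtDFNA5 cells. On 5 of 6 mutDFNA5 arrays it was below every wtDFNA5 array. The log2 change was -0.16 (SE 0.07, 95% confidence interval -0.31 to -0.01), with an adjusted p of 0.196 by limma. BNIP3L probe ILMN_1718961 read 8.59 to 8.84 in mutDFNA5 cells, and 8.89, 8.74, 9.10, 8.96 and 8.80 in wtDFNA5 cells, a log2 change of -0.17 (SE 0.08, adjusted p = 0.209). The second BNIP3L probe was detected on 0 arrays and was not tested. Both receptors therefore had negative estimates that missed the threshold. Under median scaling the estimates were nearer 0, at -0.05 for BNIP3 (adjusted p = 0.878) and -0.08 for BNIP3L (adjusted p = 0.756).

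The question whether members move together was also put to the arrays within each group, using each gene's deviation from its group mean over the 11 arrays. The 9 tested genes form 36 pairs, of which 19 correlated positively and 17 negatively. The median Pearson r was 0.03, against 0.002 over all 46585378 pairs of tested genes, whose quartiles were -0.25 and 0.25. At an unadjusted p under 0.05 for Pearson r, by exact permutation within groups, 2 of the 36 pairs passed, where chance alone gives a share of about 0.05. After Benjamini-Hochberg adjustment over the 36 pairs 0 passed (smallest adjusted p = 0.581, and for Spearman 0 pairs, smallest 0.0988).

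Those 2 pairs both held BHLHE40, and they ran in opposite directions. BHLHE40 and P4HA2 had r = -0.68 (exact permutation p = 0.0161, adjusted p = 0.581) and rho = -0.83 (p = 0.00274, adjusted p = 0.0988), with r = -0.70 without the 2 arrays farthest from the median of BHLHE40. BHLHE40 and EGLN1 had r = 0.70 (exact permutation p = 0.0367, adjusted p = 0.631) and rho = 0.77 (p = 0.0131), with r = 0.62 without those 2 arrays. By Spearman, P4HA1 and HIF1A also had an unadjusted p under 0.05 (rho = 0.74, exact permutation p = 0.0075). So did P4HA2 and EGLN1 (rho = -0.76, exact permutation p = 0.0090). Neither of these passed after adjustment (adjusted p = 0.108 for each). Within the 6 mutDFNA5 arrays alone the median r of the 36 pairs was -0.12, and 0 pairs passed after adjustment. With 6 arrays there are too few permutations for 1 pair alone to pass after adjustment. Unadjusted, 1 pair had p under 0.05, NDRG1 and HIF1A (r = -0.92, exact permutation p = 0.0306). Under median scaling the median r was 0.65 for the members and 0.42 for all pairs, of which 85.1% were positive. There 16 of the 36 member pairs had an unadjusted p under 0.05, and 0 passed after adjustment (smallest adjusted p = 0.0652). The share of all pairs with such a p was not computed.

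**Figure D3:**
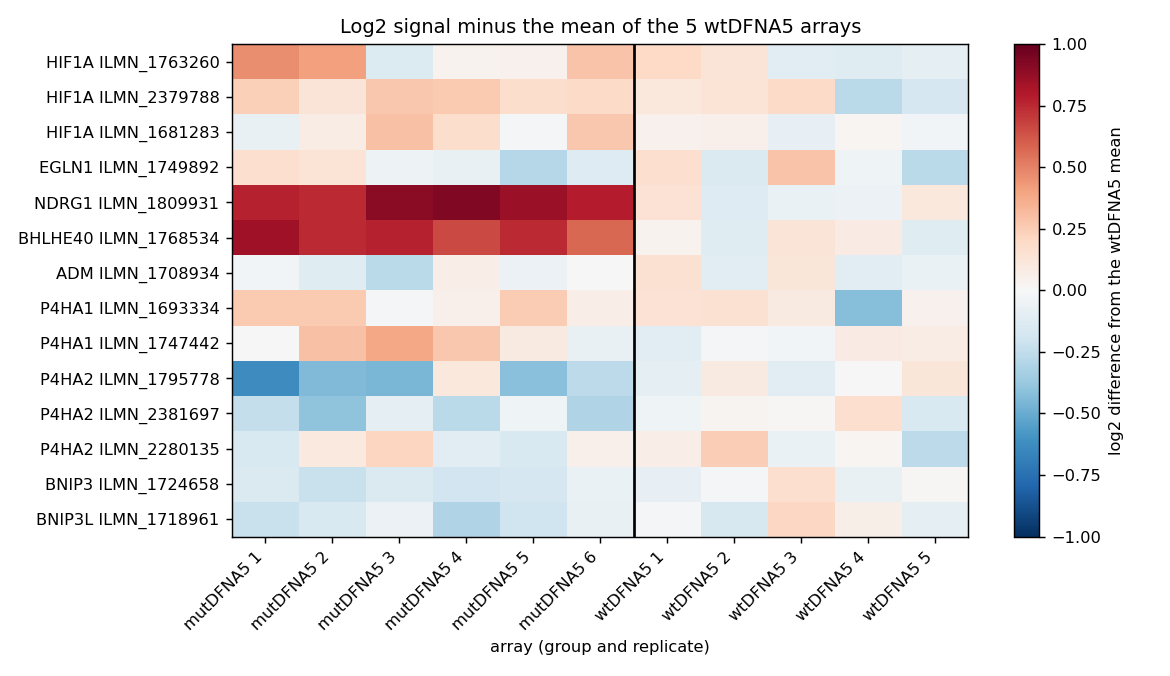
Log2 signal of the 14 tested member probes (rows) on each array (columns, mutDFNA5 left of wtDFNA5). Values are differences from the mean of the probe over the wtDFNA5 arrays. NDRG1 and BHLHE40 are high across mutDFNA5 columns, P4HA2 probe ILMN_1795778 is low in 5 of the 6, and the other rows have smaller differences between the groups.

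The other genes of the pathway were taken as 6 lists without the members. Of their 108 genes, 83 were tested, 4 were called higher and 4 lower in mutDFNA5 cells, or 9.64%, against 8.97% of all genes tested. In the list of HIF subunits and oxygen sensing, 1 of 11 tested genes was called. This was EPAS1, which encodes HIF-2 alpha, the second oxygen-labile alpha subunit. It ran from 8.70 to 9.20 on the mutDFNA5 arrays and from 8.39 to 8.58 on the wtDFNA5 arrays, without overlap (2.78% of all genes lay higher in mutDFNA5 cells without overlap). Its log2 change was 0.50 (SE 0.09, 1.41-fold, adjusted p = 0.000757 by limma), called in all 18 alternatives.

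Of 42 further HIF targets tested, 2 were called higher and 3 lower, and the median log2 change was 0.01. The largest change was that of DDIT4 (REDD1), an inhibitor of mTORC1 induced by hypoxia and other stresses, at -1.25 (9.59 ± 0.25 in mutDFNA5 cells and 10.83 ± 0.12 in wtDFNA5 cells, SD, adjusted p = 1.42e-08 by limma), opposite in sign to NDRG1. HMOX1, the heme-degrading oxygenase, fell by 0.43 on the log2 scale (adjusted p = 0.00115), and LOX, which crosslinks collagen, by 0.33 (adjusted p = 0.00520), both without overlap between the groups, as were 3.84% of all genes with mutDFNA5 lower. Both calls were lost under median scaling (HMOX1 -0.32, adjusted p = 0.110, and LOX -0.27, adjusted p = 0.126), and with normexp background correction LOX had a log2 change of -0.60. TFRC, the transferrin receptor, rose by 0.32 (adjusted p = 0.0213), a call lost in 4 of 18 alternatives, with normexp (adjusted p = 0.0606), with the replicate number as a block (0.0683) and without wtDFNA5 replicate 2 (0.0752) or mutDFNA5 replicate 6 (0.0511). PFKFB3, a regulator of glycolysis, had a log2 change of 0.25 (adjusted p = 0.0489), a call lost in 13 of 18 alternatives. Its other tested probe, ILMN_1660847, was not called (log2 change 0.20, adjusted p = 0.103 by limma).

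Among 10 further mitophagy genes tested, GABARAPL1 fell by 0.35 on the log2 scale (adjusted p = 0.0148 by limma), a call lost under median scaling (-0.24, adjusted p = 0.211). MAP1LC3B, like GABARAPL1 a member of the LC3 family of autophagosome proteins, had a log2 change of 0.29 (adjusted p = 0.0351), lost in 11 of 18 alternatives. In the lists of collagen hydroxylases (10 tested), of VEGF and ADM ligands and receptors (7 tested) and of NDRG and BHLHE relatives (3 tested), 0 genes were called. Their smallest p-values belonged to P3H2 (log2 change 0.20, adjusted p = 0.115), FLT4 (-0.31, adjusted p = 0.0628) and NDRG3 (-0.26, adjusted p = 0.125).

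**Figure D4:**
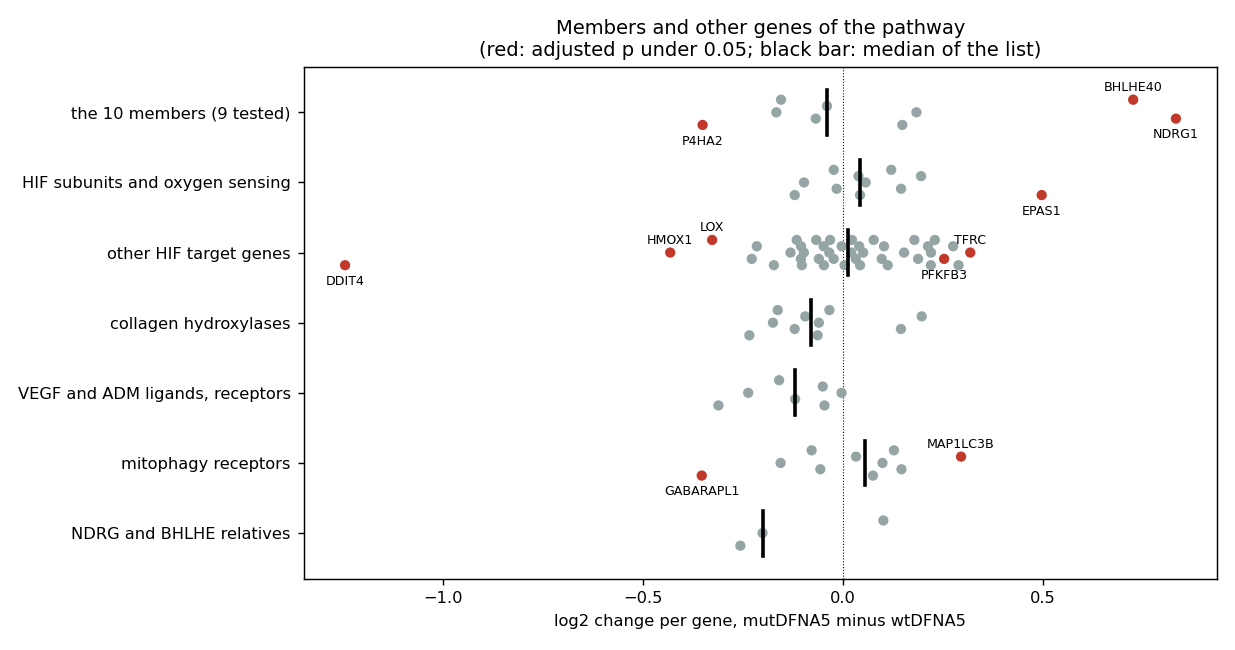
Log2 change per gene, mutDFNA5 minus wtDFNA5 (horizontal axis), of the 9 tested members and of the 6 lists of other pathway genes (rows). Each point is a gene, red where the adjusted p was under 0.05, and the black bar is the median of the list. Points lie on both sides of 0 in the larger lists, with DDIT4 at -1.25 and NDRG1 at 0.83 farthest out.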

How the data were processed

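RNA of the 11 transfected cultures was amplified to biotin-labelled cRNA, which was hybridised to Illumina HT12 arrays. Groups came from the labels. The authors deposited log2 signals per probe, not normalized between arrays, with detection p-values beside them, and a second table of log2 values after quantile normalization. The submitters' processing notes name limma 3.24.4. No background correction is named, and if none was made, changes of dim probes are understated. The headers of the detection columns name no sample, and each array's signal ran opposite to its own detection p-value (Spearman correlation -0.98), more strongly than to those of the other arrays.

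Quantile normalization was repeated with limma 3.58.1 (R 4.3.3) and came within 0.019 of the authors' table. It removes a shift shared by most transcripts. A detection p-value under 0.01 on 5 or more of 11 arrays was required, and the probes left were tested by limma's moderated test, two-sided, mutDFNA5 minus wtDFNA5, without covariates, and Benjamini-Hochberg adjustment over 14542 probes. The script was tested on simulated data.

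Probe names came from a platform annotation for a later HT12 version than the methods name, with symbols updated through RefSeq (GRCh38.p14). Of 42000 probes, 27916 had 1 symbol, 7 had several and 14077 were not listed. The brightest tested probe stood for a gene. The members, the pathway lists and the tests were chosen with earlier results of these data known. All member probes were named, with, per pathway list, the called genes, or else the gene of smallest p, and the 3 genes most like NDRG1. Alternatives were normexp correction (offset 16), median scaling, the authors' table, no filter, detection on all 11 arrays, a trended and robust prior, the replicate number as a block, the mean of a gene's probes, a log2 change of at least 0.5, and leaving out each array.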

Additional observations from a re-analysis of the deposited data

Results flagged for a closer look

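P4HA1 probe ILMN_1693334 read 9.12 on wtDFNA5 replicate 4, far below the nearest of the other 4 wtDFNA5 arrays at 9.59, a gap that took up 0.81 of the range of the group. It was 1 such array among the 36 groups examined, and chance marks about 1 group in 20. Without this array the log2 change of the probe was 0.04 (adjusted p = 0.816 by limma), against 0.15 with it. The array also had the lowest median before normalization, 6.90, and the part of this in the value was not tested.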

How the results depend on the processing

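The number of called members was 2 or 3 in all 19 alternatives, and NDRG1 and BHLHE40 were called in each of the 18 in which their probes were refitted. Median scaling shifted the median log2 change of all tested probes to 0.07. At most 15443 of the 42000 probes were detected on an array, so the median that this scaling aligns is that of an undetected probe. Under it 448 probes were called (376 higher and 72 lower), against 1196 (569 higher and 627 lower), and 3 genes of the other pathway lists in place of 8. The sign turned for P4HA2 probe ILMN_2280135 (0.0081), ADM (0.042) and EGLN1 (0.055). When each array was left out, log2 changes ran from -0.075 to 0.052 for P4HA2 probe ILMN_2280135 and from -0.11 to 0.030 for EGLN1. Differences between probe pairs ran from -0.14 to 0.062 for P4HA1, from -0.10 to 0.047 for HIF1A probes ILMN_1763260 and ILMN_2379788, and from -0.035 to 0.16 for ILMN_1763260 and ILMN_1681283. The causes were not tested.

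Same-numbered samples did not deviate together (correlations -0.06 to 0.11 over 5 numbers), so the numbers were read as names. With the replicate number as a block, 762 probes were called (374 higher and 388 lower), 3 members were called as before, and 6 genes of the other pathway lists were called (1 higher and 5 lower) in place of 8 (4 higher and 4 lower), without TFRC (adjusted p = 0.0683), PFKFB3 (0.140) and MAP1LC3B (0.0968). In this fit mutDFNA5 replicate 6 had no partner and added nothing.

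With 6 and 5 arrays, log2 changes of members had 95% intervals of about 0.15 to 0.21 on either side. VEGFA did not pass the filter, with 1 of its 3 probes detected on 3 of 11 arrays, and the second BNIP3L probe was detected on none.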

Other observations

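The genes whose deviations from the group means were most like those of NDRG1 over the 11 arrays, among 9652 genes compared, were CD82 (r = 0.91), KXD1 (r = 0.86) and LMO4 (r = 0.85). These correlations are descriptions of 11 arrays and were not tested. Between the groups none of the 3 genes passed the test: the log2 changes were 0.03 for CD82 (adjusted p = 0.854 by limma), 0.15 for KXD1 (adjusted p = 0.294) and 0.08 for LMO4 (adjusted p = 0.582).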
